A study of Mus musculus and Homo sapiens with 176 samples.

Results

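The features described here are the small nucleolar RNA (snoRNA) entries of RNA-seq gene tables from sorted mouse brain nuclei. They were chosen by name alone, as every feature whose symbol starts with Snord or Snora followed by a digit. The rule found 114 of the 24854 features in the tables, under 105 symbols: 77 named Snord (box C/D) and 37 named Snora (box H/ACA). All 114 matched an entry of the snoRNA type in the RefSeq gene table, 112 by symbol and 2 by synonym.

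Nuclei were isolated from C57Bl/6 mice of 8 to 10 weeks, stained for the neuronal nuclear protein NeuN and sorted. The 8 RNA libraries all came from 1 animal, mouse M3, with 2 libraries each of prefrontal cortex NeuN+, prefrontal cortex NeuN-, cerebellar NeuN+ and cerebellar NeuN- nuclei. The protocol in the labels names cerebellum only, and no treatment or genetic change separated the groups. The labels do not say whether the 2 libraries of a group were separate sorts, so every p-value given here measures the spread between libraries of 1 mouse, which may be technical. The study's other samples, 114 mouse and 54 human genomic DNA libraries, were not used here.

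SnoRNAs are short, stable RNAs that work in the nucleolus and guide chemical modification of other RNAs, mainly ribosomal RNA. Box C/D snoRNAs bind fibrillarin (Fbl), Nop56, Nop58 and Snu13 and guide ribose methylation, while box H/ACA snoRNAs bind dyskerin (Dkc1), Gar1, Nhp2 and Nop10 and guide the conversion of uridine to pseudouridine. In mammals most are cut from introns of host genes, many of which encode ribosomal proteins or translation factors. In brain, the imprinted Snord116 cluster is known for expression from the paternal chromosome, largely in neurons, and for its loss in Prader-Willi syndrome.

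Glial marker genes separated the gates. The 9 general neuronal genes did so in the cerebellum, and 5 genes of cortical projection neurons did so in the prefrontal cortex. Summed FPKM (fragments scaled for feature length and for the mapped fragments of the library) of 6 oligodendrocyte genes was 79.8 to 196 in the 4 NeuN+ libraries and 1476 to 2093 in the 4 NeuN- libraries. For 6 astrocyte genes it was 36.2 to 41.5 and 460 to 665. The sum over 9 neuronal genes was 1332 to 1460 in NeuN+ libraries and 688 to 703 in cerebellar NeuN- libraries, but 2102 to 2168 in prefrontal NeuN- libraries. Snap25 made up most of that sum, at 980 and 976 FPKM in prefrontal NeuN+ against 1579 and 1664 in NeuN-. By gene, 4 of the 9 were called higher and 3 lower in prefrontal NeuN+ (median log2 change 0.08), and 8 higher and 0 lower in cerebellar NeuN+. For 5 microglia genes it was 5.96 to 10.6 in NeuN+, 316 to 318 in prefrontal NeuN- and 20.7 to 22.7 in cerebellar NeuN- libraries. For 6 granule cell genes it was 2.53 to 15.0 in prefrontal libraries, 468 to 473 in cerebellar NeuN+ and 135 to 136 in cerebellar NeuN-. For the 5 cortical projection genes it was 40.5 and 42.4 in prefrontal NeuN+, 17.6 and 16.1 in prefrontal NeuN- and 2.00 to 4.88 in cerebellar libraries. All 5 were called higher in prefrontal NeuN+ (median log2 change 0.79), where 72.6% of all kept features were called. For 4 red blood cell genes it was 254 to 268 in prefrontal NeuN+ and 722 to 866 in the other 6 libraries. None of these genes was at 0 in all libraries. The part of cell makeup in the snoRNA values was not tested, and in bulk nuclei fewer nuclei of a type and less RNA per nucleus cannot be told apart.

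The first result concerns what a snoRNA value in these tables holds. Cufflinks lists an upper confidence limit beside each FPKM, and from the pair the number of fragments behind a value can be read. Features of equal length shared the same value per fragment within a library. Outside Snord116, 323 of 330 nonzero values (97.9%) came out within 0.05 of a whole number of fragments. Only values at lengths with a resolved feature are counted here. The value per fragment was itself taken from values near whole numbers, so this share is partly set by the choice. Outside Snord116, 98 features were resolved to whole fragments in all 8 libraries. Among them are 31 at or below 0.05 FPKM in every library, which were counted as 0 fragments. The 6 that were not are Snord7, Snord33, Snora24, Snora34 and the 2 copies of Snora19.

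**Figure D1:**
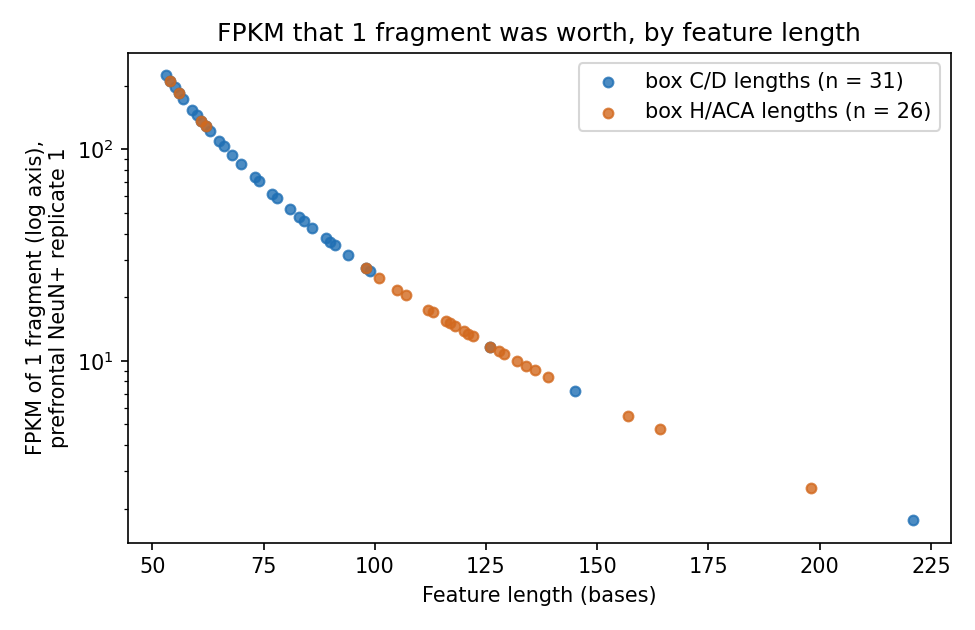
FPKM that a single fragment was worth (log axis) against feature length in bases, for each length with a resolved feature, in the shallowest library (prefrontal NeuN+ replicate 1). Points run from 224 FPKM at 53 bases to 1.76 FPKM at 221 bases, with box C/D lengths (blue) mostly at the upper left and box H/ACA lengths (orange) further right.

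One fragment was worth 224 FPKM for a feature of 53 bases and 1.76 FPKM for Snord17, the longest feature at 221 bases, in the shallowest library. The plot of FPKM per fragment shows this fall with length. A short feature can therefore reach a high FPKM from few fragments. All resolved features with Snord116 held 2175 fragments over the 8 libraries, 228 to 315 in each. The median nonzero value rested on 4 fragments, 25% rested on 1 fragment, and 24.7% on 10 or more. Among the other features kept for testing, the median implied number was 254. Relative depth, read from the same steps, ran from 1 to 1.52 between libraries.

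Box C/D and box H/ACA features differed most in this respect. The median box C/D feature was 68 bases long and the median box H/ACA feature 119 bases. In the shallowest library a fragment was worth a median of 89.8 FPKM for box C/D and 14.6 FPKM for box H/ACA. Over all libraries 65 resolved box C/D features held 805 fragments and 33 resolved box H/ACA features held 1342. These include 26 box C/D and 5 box H/ACA features counted as 0 in every library. Few features carried most of them: the 5 highest made up 56.1% of box C/D fragments and 52.2% of box H/ACA fragments.

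The 2 classes therefore swapped order with the scale. Box H/ACA features made up 51.0% to 71.1% of the snoRNA fragments of a library but 25.9% to 34.5% of its snoRNA FPKM. Per unit of relative depth, box H/ACA fragments numbered 160 and 164 in the prefrontal NeuN+ libraries and 123 and 124 in prefrontal NeuN-. In the cerebellum they numbered 107 and 118 in NeuN+ and 117 and 160 in NeuN-. The prefrontal NeuN+ libraries lay above the prefrontal NeuN- libraries without overlap, and the 2 cerebellar NeuN- libraries spanned most of the range of all 8. Box C/D fragments per unit of depth were 76.0 and 98.3 in prefrontal NeuN+, 74.5 and 81.8 in prefrontal NeuN-. For the cerebellum the values were 103 and 83.8 in NeuN+, and 82.1 and 65.1 in NeuN-. The prefrontal gates overlapped in that class, and the cerebellar NeuN+ libraries lay narrowly above the cerebellar NeuN- libraries.

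**Figure D2:**
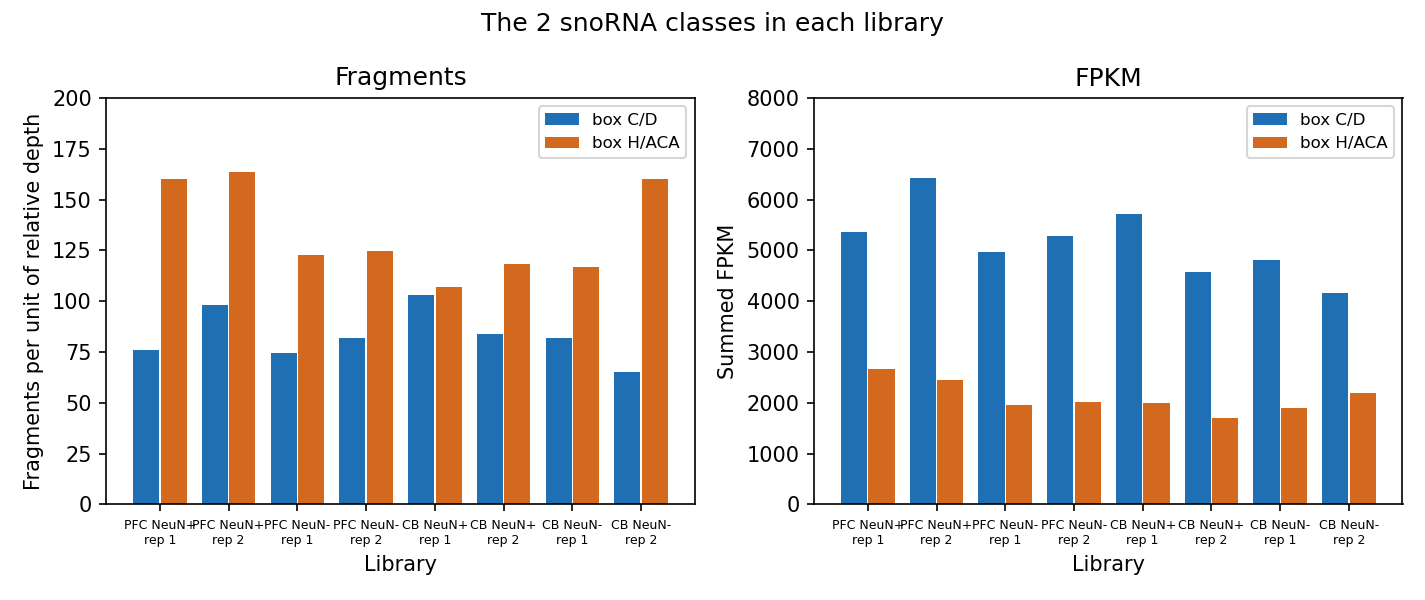
Fragments per unit of relative depth (left) and summed FPKM (right) of box C/D (blue) and box H/ACA (orange) features in each of the 8 libraries (PFC, prefrontal cortex; CB, cerebellum; bars are single libraries without error). Box H/ACA bars are the taller ones on the left in all 8 libraries, and box C/D bars are the taller ones on the right.

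Over both classes together, detection was also lowest for the shortest features. At least 1 library listed a value above 0.05 FPKM for 83 features, 51 of 77 box C/D (66.2%) and 32 of 37 box H/ACA (86.5%). The share was 47.6% of 21 features under 60 bases, 66.7% of 33 features of 60 to 79 bases and 87.5% of 24 features of 80 to 99 bases. It was 83.3% both for the 24 features of 100 to 129 bases and for the 12 longer ones. With the 10 Snord116 copies of 90 bases, which hold 1 value, counted once, it was 42 of 68 box C/D features (61.8%) and 12 of 15 features of 80 to 99 bases (80%). The rise was within box C/D: 8 of 19 under 60 bases, 20 of 31 of 60 to 79 and 20 of 23 of 80 to 99. The last was 11 of 14 with Snord116 once. Box H/ACA features showed no rise, at 2 of 2, 2 of 2 and 1 of 1 in these bands. Of those of 100 to 129 bases 19 of 23 were detected, and 8 of 9 longer ones. Of the 31 features at or below 0.05 FPKM in all 8 libraries, 26 were box C/D, among them Snord64 of the imprinted Prader-Willi region, which is 46 bases long. In these tables a value of 0 carries confidence limits of 0 and 0, whereas a count of 0 fragments in a library allows up to 3 (counting error only). Of the 114 features, 12 were above 0.05 FPKM in all 8 libraries: Snord104, Snord16a and Snord96a among box C/D, and Snora31, Snora34, Snora41, Snora5c, Snora64, Snora65, Snora68, Snora70 and Snora78 among box H/ACA.

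Snord96a, inside the gene of the ribosome-associated scaffold Rack1 (listed as Gnb2l1; mm9 chromosome 11, 48615535 to 48615611), had the highest mean level. Its FPKM was 1359.8 (confidence limits 780.0 to 1939.6) and 662 (263 to 1060.8) in prefrontal NeuN+, and 896 (514 to 1278.6) and 1252.5 (779 to 1726) in prefrontal NeuN-. In the cerebellum it was 1543.4 (989 to 2098) and 1062.4 (626 to 1499) in NeuN+, and 1079.8 (597 to 1563) and 840.5 (454 to 1227) in NeuN-. All 4 groups overlapped, and limma called it in none of the 5 comparisons (adjusted p 0.34 to 0.87). These 8 values stood on 11 to 31 fragments each.

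Snord104 (chromosome 11, 106362305 to 106362377), which lies inside no other feature of the tables, was second by level. Its fragments numbered 12 and 14 in prefrontal NeuN+, 20 and 5 in prefrontal NeuN-. Cerebellar NeuN+ nuclei gave 21 and 14, and cerebellar NeuN- nuclei 19 and 15. The prefrontal NeuN- pair alone spanned 976 and 268 FPKM, wider than the distance between groups. Snora31, in the host Tpt1, which encodes a translationally controlled growth protein, had 12, 9, 19, 9, 16, 19, 12 and 27 fragments in the same order. No comparison called Snord104 or Snora31 (limma adjusted p 0.067 or above).

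High FPKM did not always mean many fragments. Snord69, Snord47 and Snora61 ranked among the 5 highest of their classes at means of 216, 215 and 201 scaled FPKM, on 13, 20 and 14 fragments over all 8 libraries. Snora61, annotated at 62 bases, had 646 and 252 FPKM in prefrontal NeuN+, from 5 and 2 fragments. Snord35a, in the ribosomal protein gene Rpl13a, was also among the 5 highest and had 0 and 7 fragments in the prefrontal NeuN+ libraries, so its level differed as much within a group as between groups.

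The 2 libraries of a group differed far more for snoRNA features than for the rest. The median absolute log2 difference between them was 0.48 to 0.87 over the 72 kept snoRNA features and 0.077 to 0.099 over all 14376 kept features. Between 12.5% and 30.6% of kept snoRNA features were above 0 in only 1 library of a group, against 1.22% to 1.73% of all kept features. The widest pairs were Snord100 in prefrontal NeuN+ (0 and 733 FPKM, 0 and 8 fragments), Snord47 in the same group (0 and 535 FPKM, 0 and 5 fragments) and Snord12 in cerebellar NeuN+ (504 and 0 FPKM, 6 and 0 fragments).

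**Figure D3:**
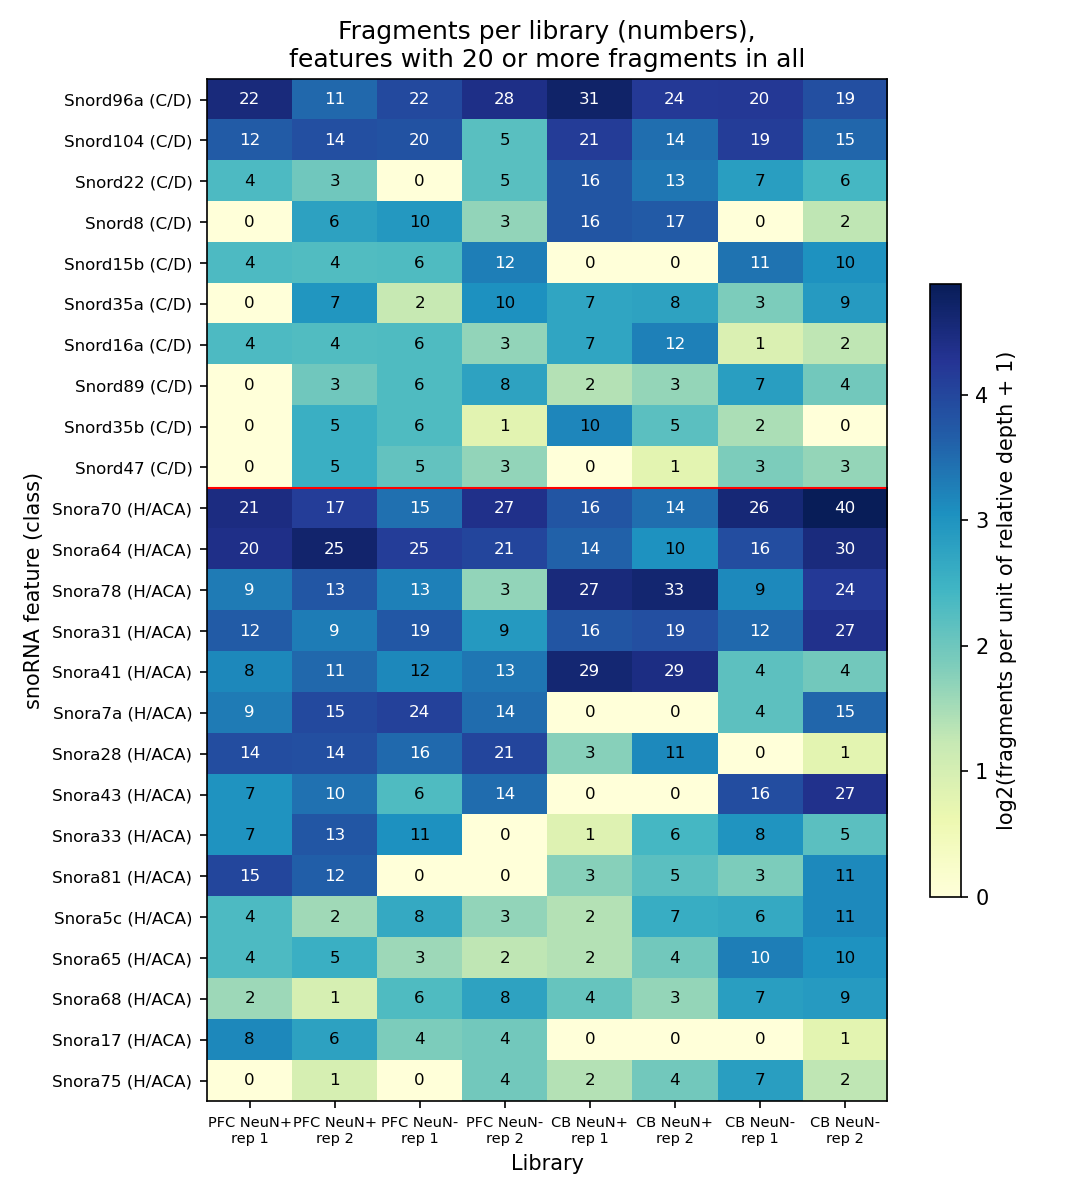
Fragments per library (numbers) of the 25 resolved features with 20 or more fragments in all, box C/D above the red line and box H/ACA below it; colour gives log2 of fragments per unit of relative depth plus 1 (PFC, prefrontal cortex; CB, cerebellum). Snord96a, Snora70 and Snora64 are high in every library, whereas Snora43, Snora7a and Snord15b stand at 0 in both cerebellar NeuN+ libraries and Snora81 at 0 in both prefrontal NeuN- libraries.

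Differences between groups were tested with limma on log2(scaled FPKM + 1), with p-values adjusted over all 14376 kept features by the Benjamini-Hochberg method and called under 0.05. A feature was kept where at least 2 libraries reached 1 FPKM, which left 72 snoRNA features, 44 box C/D and 28 box H/ACA. The 10 Snord116 copies hold 1 identical value in each library, so 63 distinct values were tested. For each named feature the fragments per unit of depth are compared as a ratio with an exact 95% interval, which covers counting error only. Against a group with 0 fragments the ratio is written as at least a value, with 3 fragments set for that group. That value leaves out the counting error of the group with fragments. It is therefore not a 95% limit, which would lie lower.

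In prefrontal cortex, NeuN+ against NeuN-, 23 of 72 snoRNA features were called (16 higher, 7 lower), or 14 of 63 with Snord116 counted once (7 higher, 7 lower). Of all kept features 72.6% were called, so the snoRNA share of 31.9% lay far below the background. Without prefrontal NeuN- replicate 2 the split was 17 higher and 2 lower. Snora81 is a box H/ACA RNA of the translation factor gene Eif4a2 (chromosome 16, 23110843 to 23111006). It had 15 and 12 fragments in prefrontal NeuN+, 0 and 0 in prefrontal NeuN-. Cerebellar NeuN+ nuclei gave 3 and 5, and cerebellar NeuN- nuclei 3 and 11. Its FPKM was 71.2 (limits 34.1 to 108) and 55.4 (23.3 to 87.5) in prefrontal NeuN+ against 0 and 0. The level was at least 12.9-fold higher in NeuN+, and limma gave an adjusted p of 3.4e-05. That the groups did not overlap was a condition of the rule by which Snora81 was named. It was the 1 snoRNA feature whose confidence limits in both libraries lay apart from those of the other gate. That held for 56.3% of all kept features. The prefrontal NeuN- values of 0 carry limits of 0 and 0, which leave out their counting error.

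The other prefrontal calls rested on less. Snora65, in the ribosomal protein gene Rpl12, had 4 and 5 fragments in NeuN+ against 3 and 2, a ratio of 2.57 (0.775 to 9.78; limma adjusted p = 0.0019). Snora64, in the ribosomal protein gene Rps2, had 20 and 25 fragments against 25 and 21, or 301 and 366 FPKM against 248 and 229. The libraries did not overlap after correction for depth, but the ratio was 1.40 (0.906 to 2.16), and the limma adjusted p of 0.047 stayed under 0.05 in 10 of 20 alternative settings, and passed 0.05 when any 1 of the 4 prefrontal libraries was left out (0.071 to 0.19). On the lower side, Snord4a (Rpl23a) and Snord82 (Ncl) were at 0 in both NeuN+ libraries, against 3 and 3, and 1 and 6 fragments. On the higher side, Snora44 of the non-coding host Snhg12 had 3 and 1 fragments against 0 and 0, and Snord87 of Snhg6 had 1 and 3 against 1 and 0. The Snord87 call was lost when any 1 of 7 of the 8 libraries was left out (limma adjusted p 0.057 to 0.17).

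Snora30, in the chromatin remodeller gene Srcap, and Snora62, in the ribosomal protein gene Rpsa, show how small a count could pass. Snora62 had 7.30 and 8.02 FPKM in prefrontal NeuN- nuclei, 1 fragment per library, and 0 in the other 6 libraries, and limma gave an adjusted p of 2.7e-07. Snora30 had 3 and 2 fragments in prefrontal NeuN- and none elsewhere (limma adjusted p = 4.2e-07). Values of 0 in both libraries leave no spread within a group. Of the 14 distinct calls, 8 rested on under 10 fragments in the 4 libraries, and the counting interval excluded 1 for 3: Snora81, Snord82 and Snord116.

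**Figure D4:**
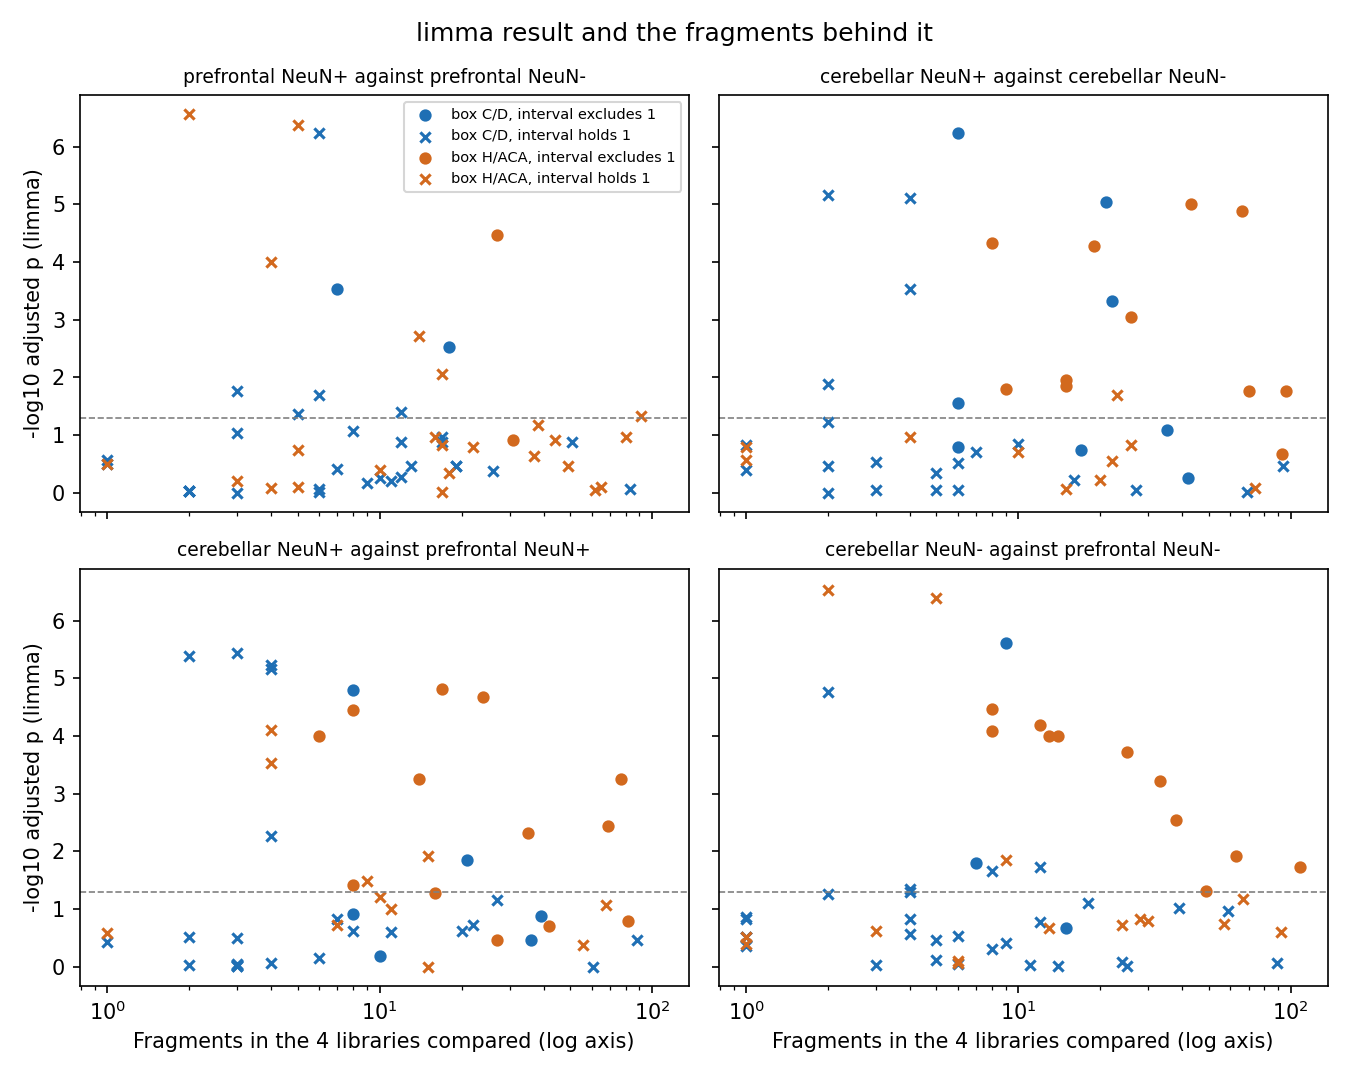
Adjusted p of limma (as -log10) against the fragments in the 4 libraries compared (log axis), a panel for each comparison, for kept features with resolved fragments and Snord116 once. Circles have a counting interval that excludes 1 and crosses one that holds 1; the dashed line is the threshold of 0.05. In the prefrontal gate panel the highest points include crosses at 2 to 6 fragments.

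In the cerebellum, NeuN+ against NeuN-, 20 of 72 features were called (8 higher, 12 lower; 27.8%) against 71.7% of all kept features. The split was 4 higher and 13 lower without cerebellar NeuN+ replicate 1 and likewise without cerebellar NeuN- replicate 1, 6 and 20 without cerebellar NeuN+ replicate 2, and 5 and 9 without cerebellar NeuN- replicate 2. With robust moderation it was 4 and 9, and with the variance not moderated 3 and 8. Among the features called higher in NeuN+, Snora41 had the most fragments. This box H/ACA RNA of the elongation factor gene Eef1b2 (chromosome 1, 63225597 to 63225709) had 29 and 29 fragments in cerebellar NeuN+ against 4 and 4 in NeuN-, with 8 and 11 in prefrontal NeuN+ and 12 and 13 in prefrontal NeuN-. Its FPKM was 396 (limits 249 to 543) and 352 (221 to 482.5) against 59.2 (0 to 118) and 48.5 (0 to 97.0). The gates did not overlap in the cerebellum and did in the cortex. The cerebellar ratio was 6.99 (3.32 to 16.9; limma adjusted p = 1.3e-05), and the prefrontal ratio was 1.09 (0.566 to 2.05; limma adjusted p = 0.12).

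Snora43, Snora7a and Snord15b were at 0 in both cerebellar NeuN+ libraries. Snora43, in the non-coding host gene Snhg7 (chromosome 2, 26493367 to 26493505), had 16 and 27 fragments in cerebellar NeuN-, with 7 and 10 in prefrontal NeuN+ and 6 and 14 in prefrontal NeuN-. It was at least 14.9-fold lower in cerebellar NeuN+ than in NeuN- (limma adjusted p = 1e-05). Snora7a, in the ribosomal protein gene Rpl32 (chromosome 6, 115757993 to 115758121), had 4 and 15 fragments in cerebellar NeuN-, 9 and 15 in prefrontal NeuN+ and 24 and 14 in prefrontal NeuN-. Its level was at least 6.57-fold lower in cerebellar NeuN+ than in NeuN- (limma adjusted p = 5.3e-05). Snord15b, in the ribosomal protein gene Rps3 (chromosome 7, 106628073 to 106628217), was chosen for its separate limits after its values were seen. It had 11 and 10 fragments in cerebellar NeuN- and was at least 7.26-fold lower in NeuN+ (limma adjusted p = 9e-06).

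Smaller differences were seen for the most covered features. Snora70, in the ribosomal protein gene Rpl10 on chromosome X, had 16 and 14 fragments in cerebellar NeuN+ and 26 and 40 in NeuN-, at 139 and 108 against 245 and 309 FPKM. The ratio was 0.438 (0.275 to 0.684; limma adjusted p = 0.017). Snora64 had 14 and 10 fragments against 16 and 30, a ratio of 0.503 (0.294 to 0.841; limma adjusted p = 0.017). Snora65 had 2 and 4 against 10 and 10, a ratio of 0.289 (0.0950 to 0.746; limma adjusted p = 0.00088). The libraries of the 2 gates did not overlap for any of these 3, which were picked among called features. Such overlap was not counted over all kept features, of which 71.7% were called in this comparison. The calls of Snora70 and Snora64 were lost without replicate 2 of either cerebellar group (limma adjusted p 0.082 to 0.089).

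Snora3, in the ribosomal protein gene Rpl27a, had 6 and 9 fragments in cerebellar NeuN+ and 0 and 0 in NeuN-, at least 4.82-fold higher (limma adjusted p = 0.014; 0.054 to 0.059 without cerebellar NeuN+ replicate 2 or either NeuN- library). Snora28, in the translation factor gene Eif5, had 3 and 11 against 0 and 1, a ratio of 13.5 (2.05 to 570; limma adjusted p = 0.011, and 0.062 without cerebellar NeuN+ replicate 2). Snord16a, in Rpl4, was chosen after its values were seen, with 7 and 12 against 1 and 2 fragments and a ratio of 6.10 (1.80 to 32.2; limma adjusted p = 0.00048). Calls on the fewest fragments were Snord34 with 1 and 3 against 0 and 0, Snord49a with 1 and 1 against 0 and 0, and Snord95 with 0 and 0 against 1 and 1. Snord57, in the gene of the box C/D protein Nop56, had 3 and 3 against 0 and 0, and Snora16a of Snhg12 had 4 and 5 against 0 and 0. The calls of Snord57 and Snora16a were lost when any 1 of the 4 cerebellar libraries was left out, and that of Snord49a for 3 of these 4 (limma adjusted p 0.051 to 0.09).

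By confidence limits, 5 features stood apart between the cerebellar gates: Snora3, Snora41 and Snord8 higher in NeuN+, and Snora43 and Snord15b lower. Of all kept features 57.6% did. Snora3, Snora43 and Snord15b were set against 0 in both libraries of a gate, whose limits of 0 and 0 leave out the counting error. Snord8, in the chromatin gene Chd8 and named after its values were seen, had 16 and 17 fragments in cerebellar NeuN+ and 0 and 2 in NeuN-, a ratio of 15.9 (4.07 to 137). It was not called by limma (adjusted p = 0.083), whose spread came from all 4 groups, among them 0 and 6 fragments in prefrontal NeuN+. Of the 20 limma calls 19 had resolved fragments: 11 rested on 10 or more, and the counting interval excluded 1 for 14.

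The change with the gate differed between the regions for 25 of 72 features (6 higher, 19 lower; 34.7%), or 16 of 63 with Snord116 once, against 70.1% of all kept features. The split was 12 higher and 20 lower without prefrontal NeuN+ replicate 2, and 3 and 21 without prefrontal NeuN- replicate 2. Snora41 was the best covered of those higher: its gate change was 2.44 larger on the log2 scale in the cerebellum (limma adjusted p = 0.00017). For Snora64 and Snora70 it was lower by 1.65 and 1.81 (values of -1.65 and -1.81; limma adjusted p = 0.0071 and 0.012). Snora81, Snora43 and Snora7a each had both libraries of a group at 0, which leaves the size of their log2 differences to the pseudocount.

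Between NeuN+ nuclei of the 2 regions, 31 of 72 features were called (4 higher and 27 lower in cerebellum; 43.1%), or 22 of 63 with Snord116 once (4 higher, 18 lower), against 77.2% of all kept features. Without prefrontal NeuN+ replicate 2 there were 10 higher and 14 lower. The higher count was 8 without prefrontal NeuN+ replicate 1, 9 without either prefrontal NeuN- library and 2 without cerebellar NeuN+ replicate 1, beside 26 to 29 lower. It was 8 with a common FPKM sum and 7 under quantile normalization, each beside 27 lower, and 8 beside 29 in a fit on these 2 groups. With robust moderation the split was 3 and 15, and with the variance not moderated 3 and 14. Of the 28 kept box H/ACA features 12 were lower and 2 higher, and of 35 distinct box C/D features 6 were lower and 2 higher. Snora7a was at least 10.4-fold lower in cerebellar than in prefrontal NeuN+ nuclei, and Snora43 at least 7.37-fold lower (limma adjusted p = 2.1e-05 and 1.5e-05). Snora17, which shares the host Snhg7 with Snora43 and was named for its separate limits after its values were seen, had 8 and 6 fragments in prefrontal NeuN+ and 0 and 0 in cerebellar NeuN+. It was at least 6.07-fold lower (limma adjusted p = 0.00056). These were the 3 snoRNA features with separate confidence limits, as 62.7% of all kept features had. All 3 were set against 0 in both cerebellar NeuN+ libraries, where the limits are 0 and 0.

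Snora81 was lower in cerebellar NeuN+ at 3 and 5 fragments against 15 and 12, a ratio of 0.228 (0.0894 to 0.515; limma adjusted p = 0.0048). Snora64 was lower at 14 and 10 against 20 and 25, a ratio of 0.410 (0.239 to 0.687; limma adjusted p = 0.0036). In the other direction Snora41 had 29 and 29 fragments against 8 and 11, a ratio of 2.35 (1.38 to 4.17; limma adjusted p = 0.00056). Snora21, in Rpl23, had 3 and 5 against 1 and 0, with a ratio of 6.15 and an interval that held 1 (0.824 to 273; limma adjusted p = 0.032, and 0.075 to 0.12 without prefrontal NeuN+ replicate 2 or either cerebellar NeuN+ library). Snord91a (Tsr1), Snord87 (Snhg6), Snord83b (Rpl3) and Snord95 were at 0 in both cerebellar NeuN+ libraries and had 4, 4, 3 and 2 fragments in prefrontal NeuN+.

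Snord33, Snord34 and Snord35a lie in Rpl13a. Snord33 was listed at 0 in all 4 prefrontal libraries, at 80.6 and 35.8 FPKM in cerebellar NeuN+ and at 87.4 and 179 FPKM in cerebellar NeuN-, and was called higher in cerebellum in both gates (limma adjusted p = 2.3e-05 and 9.5e-06). Its fragments did not come out whole. Snord35a, in the same host, was not called in any comparison (limma adjusted p 0.19 to 0.89).

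Between NeuN- nuclei of the 2 regions, 31 of 72 features were called (17 higher and 14 lower in cerebellum; 43.1%), or 22 of 63 with Snord116 once (8 higher, 14 lower), against 79.5% of all kept features. The split had no stable direction: it was 22 higher and 11 lower under quantile normalization, 5 and 10 with robust moderation and 4 and 9 with the variance not moderated. It was 9 and 13 without cerebellar NeuN- replicate 1, 9 and 12 without prefrontal NeuN- replicate 1 and 10 and 11 without prefrontal NeuN- replicate 2. Snora28 had 0 and 1 fragment in cerebellar NeuN- and 16 and 21 in prefrontal NeuN-, at 0 and 9.61 against 142 and 204 FPKM. Its ratio was 0.0308 (0.000760 to 0.183; limma adjusted p = 0.0028). Snora28 and Snora74a, in the non-coding host Snhg4, were the features with separate confidence limits, as 66.4% of all kept features had. Snora74a, also named after its values were seen, had 5 and 7 fragments in prefrontal NeuN- and 0 in all 4 cerebellar libraries. Its limits were thus set against limits of 0 and 0.

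Among those higher in cerebellar NeuN- nuclei, Snora43 had 16 and 27 fragments against 6 and 14, a ratio of 2.45 (1.41 to 4.40; limma adjusted p = 0.012, and 0.063 without cerebellar NeuN- replicate 2). Snora65 had 10 and 10 against 3 and 2, a ratio of 4.56 (1.66 to 15.6; limma adjusted p = 0.00019). Snora70 had 26 and 40 against 15 and 27, a ratio of 1.79 (1.20 to 2.70; limma adjusted p = 0.019). That call was lost without cerebellar NeuN- replicate 2 (0.091) and without prefrontal NeuN- replicate 1 (0.061). Snora81 had 3 and 11 against 0 and 0, at least 5.32-fold higher (limma adjusted p = 9.9e-05). Snora41 went the other way at 4 and 4 against 12 and 13, a ratio of 0.365 (0.142 to 0.835; limma adjusted p = 0.0006). Lower calls also included Snora69 (Rpl39), with 4 and 9 fragments in prefrontal NeuN- and 0 in the cerebellum, and Snord12, with 3 and 1 fragments against 0 and 0, whose call was lost when any 1 of 6 libraries was left out (limma adjusted p 0.065 to 0.16).

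The class medians depended on how values of 0 were treated. Over the kept features the median log2 change of box H/ACA features was 0.39 for the prefrontal gate, -0.05 for the cerebellar gate, -0.87 between NeuN+ nuclei and -0.58 between NeuN- nuclei. For box C/D features it was 0.34, -1.18, -0.30 and 0.20 in the same order, and over all kept features it was -0.01, -0.04, -0.03 and 0.02. The 10 equal Snord116 copies weigh on the box C/D values: counted once, the 4 medians were 0.0, -0.03, 0.02 and -0.08, so that none of the fitted box C/D directions held at more than 0.1 on the log2 scale. With fragment ratios in place of fitted changes, groups at 0 set to 3 fragments and features at or under 3 fragments in both groups left out, the box H/ACA medians were 0.20, -0.90, -0.79 and 0.38 on the log2 scale. These came from 18 to 23 features, and the sign for NeuN- nuclei was the opposite of the fitted one. The box C/D medians were -0.16, 0.13, 0.04 and -0.23 over 18 to 23 features, opposite in sign in all 4 comparisons to the fitted medians that count Snord116 10 times.

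The Snord116 copies are 10 features of 90 bases on chromosome 7, between 66931360 and 67021910, listed as Snord116, Snord116l1 and Snord116l2. Each copy held the same value: 29.2 and 35.6 FPKM in prefrontal NeuN+, 0 and 0 in prefrontal NeuN-. Cerebellar NeuN+ nuclei gave 0 and 7.85, and cerebellar NeuN- nuclei 16.0 and 5.23. Their lower confidence limit was 0 in every library. Summed over the copies this made 8 and 10, 0 and 0, 0 and 3, and 5 and 2 whole fragments. Fragments that fit several copies cannot be assigned to 1 of them, so the copies count as a single measurement.

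The prefrontal NeuN+ libraries were thus the highest 2 of the 8. In prefrontal cortex Snord116 was at least 8.58-fold higher in NeuN+ than in NeuN- (limma adjusted p = 0.003), and the gates did not overlap. In the cerebellum the gates did overlap, with a ratio of 0.413 (0.0689 to 1.81; limma adjusted p = 0.14). Cerebellar NeuN+ nuclei had a ratio of 0.128 (0.0242 to 0.439) to prefrontal NeuN+ nuclei (limma adjusted p = 0.014), on 21 fragments. Cerebellar NeuN- nuclei were at least 2.66-fold above prefrontal NeuN- nuclei (limma adjusted p = 0.016), on 7 fragments. This call was lost without either prefrontal NeuN- library (limma adjusted p = 0.063 for each) and without cerebellar NeuN- replicate 1 (0.088), and with robust moderation or none. The call between NeuN+ nuclei was lost without prefrontal NeuN+ replicate 2 (limma adjusted p = 0.059) and under the same 2 settings of the variance. The gate change differed between the regions by -6.93 on the log2 scale (limma adjusted p = 0.004).

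Ipw, a non-coding imprinted transcript whose feature spans a Snord116l1 and a Snord116l2 copy, had another pattern. It was at 321 and 379 FPKM in prefrontal NeuN+, 20.4 and 24.5 in prefrontal NeuN-. Cerebellar NeuN+ nuclei gave 378 and 371, and cerebellar NeuN- nuclei 94.9 and 86.4. Ipw was higher in NeuN+ in both regions, by 4.14 and 2.04 on the log2 scale (limma adjusted p = 5.8e-07 and 9e-06). Between NeuN+ nuclei of the 2 regions it differed by 0.09 (limma adjusted p = 0.5), where Snord116 was lower in cerebellum.

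Of the 114 features 102 lay inside the span of another feature, here called the host; strand was not considered, and 76 features served as host. Host changes were smaller. Over 60 kept pairs the median absolute log2 change of hosts was 0.34 for the prefrontal gate, 0.22 for the cerebellar gate, 0.55 between NeuN+ and 0.29 between NeuN- nuclei, against 1.35, 1.82, 2.21 and 2.79 for the snoRNA features. The sign was shared by 32 of 58, 21 of 51, 34 of 55 and 30 of 59 pairs in the same order, leaving out pairs whose snoRNA change was exactly 0. Pearson's r across these pairs, which share libraries and sometimes a host, was 0.24, 0.13, 0.41 and 0.19, given as a description.

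**Figure D5:**
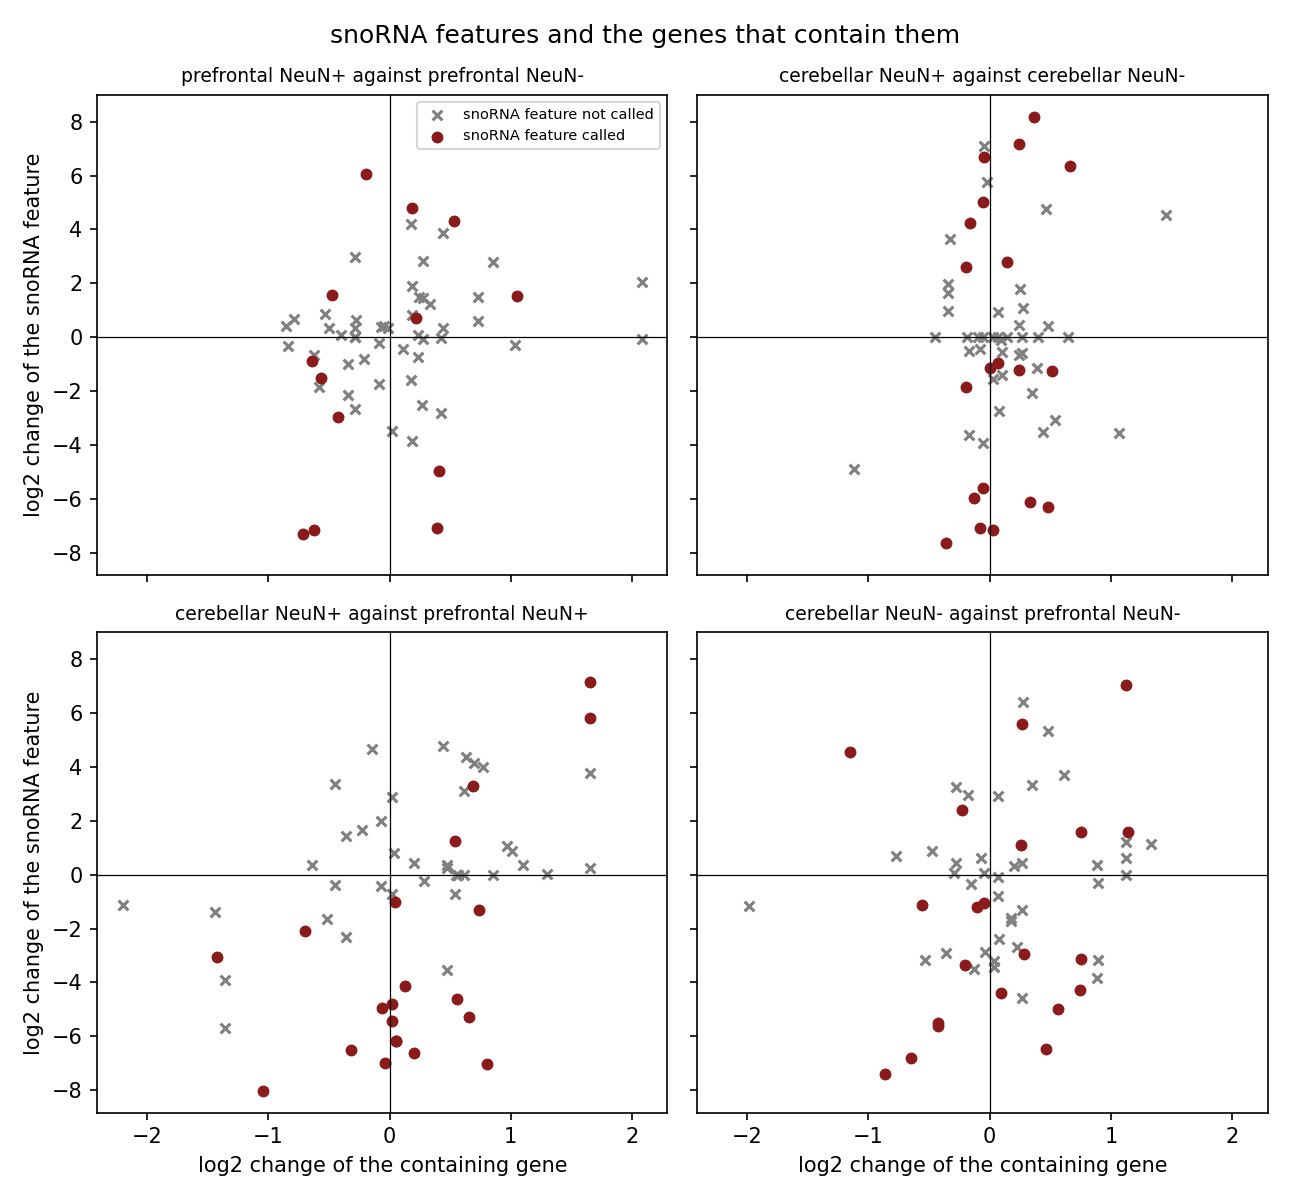
log2 change of each kept snoRNA feature against that of the gene containing it, a panel for each comparison (60 pairs each; red circles are called snoRNA features, grey crosses are not called). The median absolute change was 0.22 to 0.55 for hosts and 1.35 to 2.79 for snoRNA features, which spread in both directions.

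Among the called features with a kept host, the host was called in the same direction for 8 of 13 in the prefrontal gate, 6 of 20 in the cerebellar gate, 8 of 21 between NeuN+ and 9 of 21 between NeuN- nuclei. It was called in the opposite direction for 3, 6, 5 and 7. Over all 60 pairs 66.7%, 60%, 76.7% and 65.0% of hosts were called in either direction, against 72.6%, 71.7%, 77.2% and 79.5% of all kept features, so a called host is no result about the snoRNA features. Eif4a2, the host of Snora81, was at 121 and 117 FPKM in prefrontal NeuN+ and 159 and 162 in prefrontal NeuN-, lower in NeuN+ by -0.19 on the log2 scale (limma adjusted p = 0.015), opposite to Snora81. Snhg7, the host of Snora43, was at 44.2 and 38.7 FPKM in cerebellar NeuN+ and 37.4 and 44.2 in NeuN- (limma adjusted p = 0.84), where Snora43 had 0 and 0 against 16 and 27 fragments. Eef1b2, the host of Snora41, was 0.14 higher in cerebellar NeuN+ (limma adjusted p = 0.029), in the direction of Snora41, whose log2 change was 2.78. The changes of Eif4a2 and Eef1b2 were larger than the shifts made by the scaling, but of the same order as some of them. A common FPKM sum moved the median of all features by 0.15 in the prefrontal gate. In the cerebellar gate that setting moved it by -0.002 and quantile normalization by 0.10. Rpl32, the host of Snora7a, was 0.33 higher in cerebellar NeuN+ (limma adjusted p = 0.018), opposite to Snora7a.

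Some features of a shared host had different patterns. Snora43 and Snora17 of Snhg7 had 17 and 14 fragments in prefrontal NeuN+ but 43 and 1 in cerebellar NeuN-. In Gnb2l1, Snord96a had 55 fragments in cerebellar NeuN+ and Snord95 had 0. Snord95 was sparse throughout, with 8 fragments in the 4 prefrontal libraries and 2 in cerebellar NeuN-. Its counting interval held 1 in each of the 4 comparisons of 2 groups. In Snhg12, Snora44 was at 0 and 0 in cerebellar NeuN+ and had 3 and 5 in NeuN-, whereas Snora16a had 4 and 5 in NeuN+ and 0 and 0 in NeuN-. Both differences were called (limma adjusted p = 4.6e-05 and 0.016), on 8 and 9 fragments, the second lost as given above when 1 cerebellar library was left out.

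The genes of the snoRNA particle proteins were tested in the same fit. Among the box C/D proteins, Nhp2l1 (the Snu13 protein) was at 91.6 and 88.4 FPKM in prefrontal NeuN+, 131 and 126 in prefrontal NeuN-. Cerebellar NeuN+ nuclei gave 54.7 and 49.5, and cerebellar NeuN- nuclei 29.1 and 33.4. It was lower in cerebellum in both gates, by -0.79 and -1.79 on the log2 scale (limma adjusted p = 8.7e-05 and 2.3e-06). Fbl, the methyltransferase, was lower in cerebellar NeuN+ than NeuN-, at 7.26 and 5.52 against 12.9 and 11.5 FPKM (log2 -0.85; limma adjusted p = 0.0017). Nop56 and Nop58, the scaffold proteins, were 0.37 and 0.48 higher in cerebellar NeuN+ (limma adjusted p = 0.00098 and 0.0045).

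Among the box H/ACA proteins, Dkc1, the pseudouridine synthase, was at 25.9 and 25.5 FPKM in cerebellar NeuN+ and 11.0 to 16.0 in the other 6 libraries. It was 1.07 higher on the log2 scale than in prefrontal NeuN+ (limma adjusted p = 7.4e-06). In that comparison 12 of 28 box H/ACA RNA features were called lower and 2 higher, where 77.2% of all kept features were called. A relation between Dkc1 and these features was not tested. Nhp2 was lower in NeuN+ in both regions, by -0.89 and -0.37 (limma adjusted p = 0.00014 and 0.0088), and Nop10 was lower in prefrontal NeuN+ by -0.36 (limma adjusted p = 0.013). For Dkc1, Gar1, Nhp2 and Nop10 alike, the log2 change with the gate was higher in the cerebellum than in the cortex (limma adjusted p 0.00025 to 0.021). Of all kept features 70.1% were called for this difference. The direction was not particular to box H/ACA proteins. Of 4 box C/D protein genes 2 were called higher and 0 lower, and of 15 assembly and transport genes 8 higher and 1 lower.

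Of 15 kept genes for snoRNA assembly and transport, 4 were higher and 7 lower in prefrontal NeuN+ nuclei, and 8 were higher and 1 lower in cerebellar NeuN+ nuclei. That is 73.3% and 60% called, against 72.6% and 71.7% of all kept features. Of 19 kept genes of ribosomal RNA synthesis, 10 were higher and 6 lower in prefrontal NeuN+, and 5 higher and 6 lower in cerebellar NeuN+ (84.2% and 57.9% called). Of 15 kept non-coding snoRNA host genes (Gas5 and the Snhg genes), 9 were higher and 2 lower in prefrontal NeuN+, and 3 higher and 5 lower in cerebellar NeuN+ (73.3% and 53.3% called). Median log2 changes of the 3 lists were -0.13, 0.21 and 0.54 for the prefrontal gate and 0.23, -0.05 and -0.04 for the cerebellar gate, beside -0.01 and -0.04 over all kept features. Other short RNA features (small nuclear, Cajal body, Y and microRNA entries) resembled the snoRNA features in their share of calls: 46 of 184 kept (25.0%) were called in the prefrontal gate and 64 of 184 (34.8%) in the cerebellar gate.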

How the data were processed

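The authors deposited Cufflinks gene tables with FPKM, its lower and upper confidence limits and a status for each library, per the file headers. Per the submitters' processing notes, Trim Galore 0.3.7, TopHat2 2.1.1, Bowtie 1.1.1 and Cufflinks were among the tools and mm9 among the builds. For library preparation, size selection and strand, the sources used here give no method. A fragment of a snoRNA cannot be told apart from unspliced host RNA.

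The snoRNA features, gene lists and comparisons were chosen with earlier results of these data known. Libraries were scaled by median of ratios over 9109 features (factors 0.878 to 1.05). limma 3.58.1 in R 4.3.3 was fitted to log2(scaled FPKM + 1) with 1 mean per group and a variance trend over the 14376 features that reached 1 FPKM in 2 or more libraries, with 4 residual degrees of freedom, and p-values were adjusted by the Benjamini-Hochberg method. In a simulation of the prefrontal gate comparison on 14376 features, 27 of 50 genes changed 1.25-fold and 50 of 50 changed 1.5-fold were called, as were 6 of 14176 unchanged genes. Its noise was the median spread of features of like level, whereas snoRNA features differed far more between libraries of a group. The recovery and the false calls therefore do not apply to the snoRNA features. Every snoRNA status was OK.

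Fragments were derived as the square of 2 × FPKM / (upper limit - FPKM). The step of each length and library was taken from values of fewer than 8 fragments that lay within 0.05 of a whole number. Values under 0.05 FPKM were counted as 0. Ratios are of fragments per unit of relative depth, so without the library scaling; without it the median of all features moved by -0.18 for the prefrontal gate, -0.16 between NeuN- nuclei and 0.19 for the difference between regions, and with a common FPKM sum by 0.15, 0.24 and -0.17. Intervals are Clopper-Pearson on the split. Confidence limits were called separate where those of both libraries of a group lay beyond those of the other group. A group at 0 has limits of 0 and 0, so any lower limit above 0 counts as separate from it.

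Named features are, per comparison, up to 5 called in each direction with the largest change among those at a mean of 5 FPKM or more and the same direction in all library pairs, the 5 highest of each class, all imprinted-cluster members and the 3 with the widest library pairs; the Snord116 copies were taken as 1 entry. Features named outside this rule are marked. The sequence search planned for box motifs was not run.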

Additional observations from a re-analysis of the deposited data

Results flagged for a closer look

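The change with the NeuN gate differed between cerebellum and prefrontal cortex, by limma's interaction term with adjusted p under 0.05, for 16 distinct snoRNA features. The difference is given on the log2 scale, cerebellum minus prefrontal cortex. It was higher for Snora41 (2.44), Snord16a (1.95), Snora3 (6.78), Snora30 (4.98), Snora62 (2.96) and Snord34 (7.17). It was lower for Snora64 (-1.65), Snora70 (-1.81), Snora65 (-3.42), Snora81 (-6.66), Snora43 (-7.77), Snora7a (-6.22), Snora44 (-10.42), Snord15b (-5.66), Snord95 (-5.55) and the Snord116 copies (-6.93). Snora41, Snord16a, Snora64, Snora65 and Snora70 had fragments in all 8 libraries. The other 11 had 1 or more groups with 0 fragments in both libraries, so the size of their difference depends on the pseudocount. Snora62 rested on 2 fragments in all, Snord34 on 4 and Snora30 on 5. The call of Snora3 was lost when any 1 of 6 libraries was left out (limma adjusted p 0.084 to 0.12).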

How the results depend on the processing

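Of 77 called changes of named features, followed through 1508 values under the alternatives, 1355 kept direction and call, 153 lost the call and 0 reversed, and 53 changes held under every alternative that could be fitted. The counts of called snoRNA features, 23, 20, 31 and 31 for the prefrontal gate, the cerebellar gate, NeuN+ and NeuN- nuclei and 25 for the difference between regions, stayed within 1.5 times in the other planned settings as totals, but not in each direction. They fell with the variance not moderated, to 11, 17 and 13 for the cerebellar gate, NeuN+ and NeuN- nuclei, and with robust moderation to 13, 18 and 15. Alternatives chosen after seeing the data lowered them further. With the Snord116 copies counted once they were 14 for the prefrontal gate and 16 for the difference between regions. With at least 10 fragments also required, 6, 11, 8 and 10 remained in the 4 comparisons of 2 groups, and with a counting interval that excludes 1, 3 for the prefrontal gate, 11 for NeuN+ and 13 for NeuN- nuclei. With the replicate block the counts were 20, 19, 33, 32 and 26. Features with separate limits numbered 1, 5, 3 and 2, also without library scaling and with a minimum of 5 FPKM. No other setting was tried, and these cannot change limits of 0 and 0. Same-numbered libraries showed no shared shift across groups, as their deviations correlated by -0.045 to 0.034. This cannot tell whether they shared a sort or preparation, which the labels do not say. Class medians (log2) moved more. With Snord116 counted once, the box C/D median was -0.034 for the cerebellar gate and 0.083 for the difference between regions. Without the filter on low values, the box H/ACA median was -0.41 between NeuN+ and 0.0 between NeuN- nuclei. With each library left out in turn, the box C/D median ran from 0.14 to 1.22 for the prefrontal gate, from -3.41 to -0.22 for the cerebellar gate, from -2.94 to -0.22 between NeuN+ nuclei and from -1.46 to -0.25 for the difference between regions. The box H/ACA median ran from -0.46 to 0.0, from -1.30 to -0.87, from -0.64 to 0.16 and from -1.31 to -0.035 for the cerebellar gate, NeuN+ nuclei, NeuN- nuclei and the difference between regions. The cause of these shifts was not tested. The snoRNA values stood on few fragments: the median nonzero value rested on 4, against 254 implied for the other kept features. The parts of depth, feature length and library preparation in this were not tested.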
